A study of Mus musculus with 7 samples.

Results

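The genes described here encode the proteins of the cytosolic ribosome, measured by poly(A) RNA-seq in interscapular brown adipose tissue of PGAM5-knockout and wild-type mice. Members were all protein-coding genes of the count table whose symbol begins with Rpl or Rps and a digit, together with Rplp0, Rplp1, Rplp2 and Rpsa, with the Rps6k kinases left out. This gave 92 members among 53715 gene identifiers. They comprise 43 proteins of the large subunit, 31 of the small subunit, the 3 acidic proteins of the P stalk, and 15 paralogs, retained copies or genes that only share the name. Of the 92 members, 88 passed the filter on low counts and were tested. The rule for members used names only and no measured value, but it was set with earlier results of these data known.

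A cytosolic ribosome joins a small subunit, which reads the messenger RNA, to a large subunit, which forms the peptide bonds. Most mammalian ribosomal protein mRNAs are short, abundant and begin with a cytosine followed by a run of pyrimidines, the terminal oligopyrimidine (TOP) motif, through which mTORC1 and the RNA-binding protein LARP1 adjust their translation and stability together. Brown adipose tissue makes heat in mitochondria that carry the uncoupling protein UCP1, and those mitochondria hold a second set of ribosomes built from other genes.

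Both groups were male C57BL/6J mice, each library being a separate individual at an age of 10 weeks. The first group carried a knockout of Pgam5, which encodes a protein phosphatase of mitochondria (KO), and the other was wild-type (WT); the allele and the cells it acts in are not described in the labels. The labels list 4 KO and 3 WT samples, and columns for 3 KO and 3 WT libraries were analysed, with KO 4 not analysed here. Total counts were 18952348 to 21826942 in KO and 18034204 to 33617762 in WT, so that 3 counts, the limit a count of 0 allows, amount to 0.129 to 0.147 CPM in KO and 0.0883 to 0.2 CPM in WT. CPM here means counts scaled to each library's total after TMM adjustment, and such limits cover counting error only. Pgam5 had 1, 3 and 11 counts in KO against 167, 122 and 186 counts in WT (log2 fold change -4.84, SE 0.59, edgeR adjusted p = 0.0243). That call ended without KO 1 (log2 -4.35), KO 2 (-4.54), WT 1 (-4.84) or WT 3 (-4.97). The brown adipocyte markers, Ucp1 included, were all detected, with a summed level of 17902 to 20369 CPM in KO and 16568 to 20588 CPM in WT. KO 3 and WT 2 stood apart from the other libraries on the first principal component, at -66.8 for KO 3 and 65.0 for WT 2, with the other 4 libraries between -8.23 and 13.0. Transcripts of mitochondrial DNA made up 34.1%, 28.2% and 19.7% of counts in KO 1 to KO 3, against 32.5%, 43.0% and 30.3% in WT 1 to WT 3. Results are given for all libraries analysed, and for the members as a set and most of the gene lists set beside them also without KO 3 and WT 2.

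The start of transcription is where these genes share sequence that the choice by name did not use. RefSeq promoter windows on GRCm38.p6, the build called mm10, were matched for 66 of the 92 members. Windows of 60 bases, 40 before the RefSeq start and 20 from it on, are shown for Rpl35, Rps6, Rpl22l1 and Rps27, whose pyrimidine run lies at the start, and for Rpl23, Rps13 and Rplp0, where none crosses it. Capitals mark a run of 6 or more C or T within 15 bases of the start, and each is written 5′ to 3′ on the strand of its gene. The RefSeq start of Rpl35 lies 493 bases from the GENCODE start of the gene, and the other starts shown lie 0 to 72 bases from it. The windows are Rpl35 at chr2:39005112-39005171 (-), Rps6 at chr4:86857348-86857407 (-), Rpl22l1 at chr3:28805468-28805527 (+), Rps27 at chr3:90213629-90213688 (-), Rpl23 at chr11:97782420-97782479 (-), Rps13 at chr7:116334171-116334230 (-) and Rplp0 at chr5:115559427-115559486 (+).
Rpl35: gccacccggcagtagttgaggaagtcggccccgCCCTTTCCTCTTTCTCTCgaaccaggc
Rps6: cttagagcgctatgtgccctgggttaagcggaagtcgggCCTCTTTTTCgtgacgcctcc
Rpl22l1: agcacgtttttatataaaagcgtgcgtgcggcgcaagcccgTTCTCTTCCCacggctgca
Rps27: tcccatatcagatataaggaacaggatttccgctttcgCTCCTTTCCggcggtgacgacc
Rpl23: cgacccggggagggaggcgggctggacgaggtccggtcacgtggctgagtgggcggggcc
Rps13: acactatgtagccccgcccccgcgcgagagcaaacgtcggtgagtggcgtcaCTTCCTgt
Rplp0: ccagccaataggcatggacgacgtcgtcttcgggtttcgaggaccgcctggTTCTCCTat

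Such a run was found in 41 of the 66 member promoters (62.1%), with a median length of 10 bases, and in 3414 of 9510 other tested protein-coding genes (35.9%). The ETS core CCGGAAG, read on either strand of the 300-base window, was present in 24 member promoters (36.4%) and in 18.4% of the others. The YY1 sequence AAGATGGC was present in 5 (7.58%) against 4.75%, and TATAAA in 6 (9.09%) against 7.30%. A match describes the letters of the window and is not a measured binding site.

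Ribosomal protein mRNAs had lower mean levels in KO than in WT almost throughout, but no member passed the test, and the levels of the groups overlapped in all tested members except Rpl21. The summed level of all members was 18134, 13941 and 9537 CPM in KO 1 to KO 3, against 16580, 26484 and 14723 CPM in WT 1 to WT 3. KO 1 was thus above WT 1 and WT 3, KO 3 was the lowest library and WT 2 the highest. The means were 13871 ± 4299 CPM in KO and 19262 ± 6322 CPM in WT (SD, n = 3 each), so the difference was smaller than the spread within WT. As a share of all counts, members took 1.83%, 1.53% and 1.03% in KO and 1.64%, 2.20% and 1.49% in WT. With the genes of the mitochondrial genome left out of the total, the shares were 2.77%, 2.13% and 1.28% in KO and 2.43%, 3.86% and 2.13% in WT, with WT 2 highest and KO 3 lowest on both denominators. In whole tissue, fewer cells of a type and less RNA per cell cannot be told apart.

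**Figure D1:**
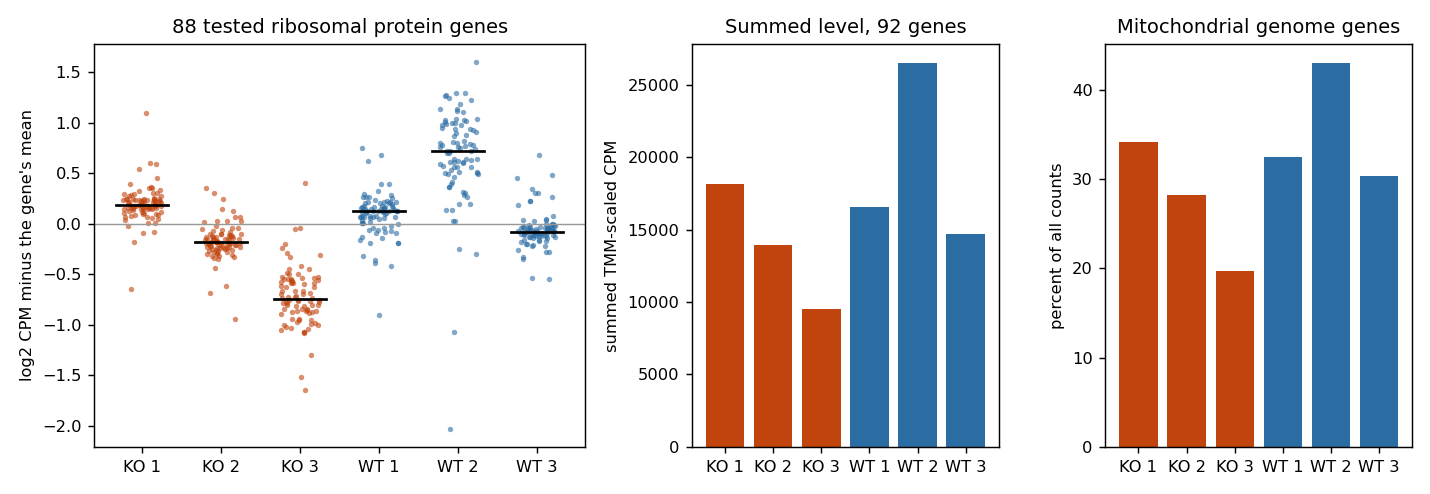
Left, log2 CPM of each of the 88 tested ribosomal protein genes minus its own mean over the 6 libraries, with black lines at the medians; middle, summed TMM-scaled CPM of all 92 genes; right, percent of all counts from genes of the mitochondrial genome. KO libraries are orange and WT libraries blue: the points lie lowest in KO 3 (median -0.74) and highest in WT 2 (median 0.72).

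Of the 88 tested members, 0 passed an adjusted p of 0.05 in the edgeR quasi-likelihood test with Benjamini-Hochberg adjustment over all genes, where 0.0595% of the 15123 genes tested passed. The smallest adjusted p of a member was 0.400, for Rpl21, in that edgeR test. DESeq2 (1.24% of genes called) and limma-voom (0.0463%) also called 0 members. EdgeR without a filter on low counts called 13 members lower, where 1.19% of its 27874 genes were lower. That unfiltered fit had infinite median total degrees of freedom, against 9.61 in the main fit, so a typical gene's own spread carried no weight. Its SE for Rpl35 was 0.21, against 0.48 in the main fit. At an unadjusted edgeR p under 0.05, 0 members were higher in KO (6.3% of all genes) and 5 were lower (5.49% of all genes). These 5, 5.68% of the members, included Rpl21, Rps6, Rpl23 and Rpl39, a share close to that of all genes. By DESeq2 the count was 21 (6.08% of all genes), without the filter 43 (5.2%) and with the replicate number as a block 30 (5.68%). The count of 5 became 45 without KO 1 (5.01% of all genes), 0 without KO 2 (4.28%) and 0 without KO 3 (2.94%). It became 11 without WT 1 (6.1%), 1 without WT 2 (3.59%) and 29 without WT 3 (5.77%). With total counts only it was 1 (2.1%), and with a stricter filter 2 (5.73%). Rpl21 was the only member whose groups did not overlap, with KO below WT, where 9.39% of all genes had that order.

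The direction of the fitted change was nearly uniform all the same. The log2 fold change, KO minus WT, was negative in 87 of 88 tested members (98.9%), against 50.2% of all genes tested, and its median was -0.45, against -0.00 over all genes. Members ranged from -0.97 for Rpl35 to 0.07 for Rps13, the 1 member with a positive value, and their median SE was 0.296 on the log2 scale. By class, the median was -0.51 over 43 large-subunit genes, of which 43 were negative, and -0.46 over 31 small-subunit genes, of which 30 were negative. It was -0.29 over the 3 P-stalk genes and -0.40 over the 11 tested paralogs and copies, all of them negative.

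The members varied together from library to library. WT 2 held the highest level of 75 of 88 members (85.2%), against 27.2% of all genes tested, and KO 3 the lowest of 81 (92%), against 26.6%. Both held for 71 members (80.7%), against 14.0% of all genes. The order KO 1 above KO 2 above KO 3 was seen in 83 members (94.3%) and in 21.6% of all genes, and the order WT 2 above WT 1 above WT 3 in 68 members (77.3%) and in 18.4% of all genes. The level in KO 3 divided by the mean of KO 1 and KO 2 had a median of 0.591 over members and 0.992 over all genes, and lay below 1 in 86 of 88 members. The level in WT 2 divided by the mean of WT 1 and WT 3 had a median of 1.62 over members and 0.983 over all genes, and lay above 1 in 81 of 88 members.

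**Figure D2:**
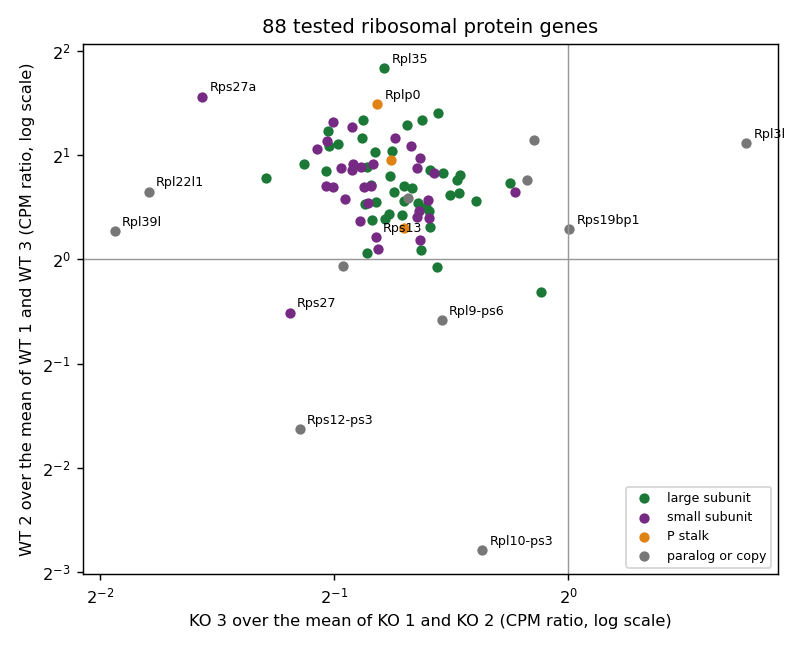
Each point is 1 of the 88 tested ribosomal protein genes, with the CPM ratio of KO 3 to the mean of KO 1 and KO 2 on the horizontal axis and of WT 2 to the mean of WT 1 and WT 3 on the vertical axis, both on log scales and coloured by class. Most genes lie at the upper left, low in KO 3 and high in WT 2, around the medians of 0.591 and 1.62, while copies such as Rpl10-ps3 and Rps12-ps3 lie below 1 on the vertical axis.

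Without KO 3 and WT 2 the members' median was close to 0. KO 3 was the lowest library and WT 2 the highest for most members, so leaving out both was bound to raise the fitted change. The values below give the size of that move, and no conclusion on genotype is drawn from them. In the comparison of KO 1 and KO 2 with WT 1 and WT 3, 50 of 88 members had a negative log2 fold change (56.8%), against 50.9% of all genes, and the median was -0.01, against -0.01 over all genes. The ratio of the mean of KO 1 and KO 2 to the mean of WT 1 and WT 3 had a median of 0.989, and in 81 of 88 members it was within 1.2-fold of 1. The edgeR test of these 4 libraries again called 0 members, where 0.174% of 15545 genes passed. At an unadjusted p under 0.05 it gave 0 lower members (3.96% of all genes) and 1 higher member (4.53% of all genes), Rplp0. The summed level was then at a log2 ratio of 0.0366, KO over WT, against -0.47 with all 6 libraries.

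**Figure D3:**
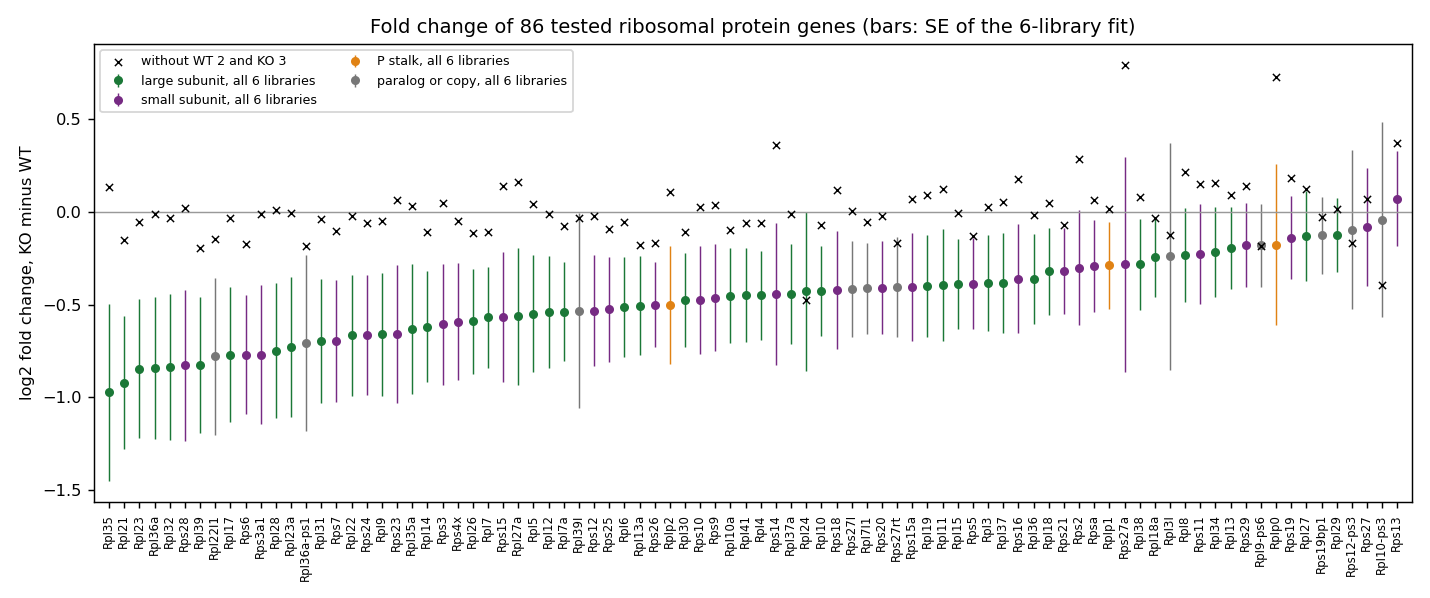
Log2 fold change (KO minus WT) of 86 of the 88 tested genes, ordered by value; coloured circles with SE bars are the fit of 6 libraries, by class, and crosses the fit without WT 2 and KO 3. All circles except that of Rps13 lie below 0, while the crosses scatter about 0 between -0.48 and 0.79.

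Among large-subunit genes, Rpl35, whose protein sits beside the exit of the nascent peptide, had the most negative fold change. The gene (ENSMUSG00000062997.6, chromosome 2 from 39001580 to 39005624, minus strand) had 78.1, 56.7 and 39.1 CPM in KO, against 63.2, 219 and 59.7 CPM in WT. WT 2 was more than 3 times the level of either other WT library, and KO 1 exceeded WT 1 and WT 3. The ratio of WT 2 to the mean of the other WT libraries was 3.56, the highest of all members. The log2 fold change was -0.97 (SE 0.48, edgeR adjusted p = 0.443) with 6 libraries and 0.13 (SE 0.18) without WT 2 and KO 3. Exons of Arpc5l and Wdr38, on the opposite strand, overlap 68.3% of its mRNA length, and the strand setting of the counting is not given in the sources used here.

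Rpl21 (ENSMUSG00000041453.12, chromosome 5 from 146832890 to 146837032) encodes another large-subunit protein. It had 43.8, 37.2 and 26.2 CPM in KO, against 45, 113 and 45.1 CPM in WT. The 3 KO libraries were below the 3 WT libraries, but KO 1 was only slightly below WT 1 and WT 3. The log2 fold change was -0.92 (SE 0.36, edgeR adjusted p = 0.400), and -0.15 (SE 0.15) without WT 2 and KO 3. Rpl23, on the face of the large subunit where eIF6 binds, had 173, 139 and 106 CPM in KO, against 168, 428 and 156 CPM in WT (log2 -0.85, SE 0.38, edgeR adjusted p = 0.423). KO 1 lay above WT 1 and WT 3 here too. Rpl36a had 77.6, 62.4 and 38.2 CPM in KO, against 72.0, 178 and 69.4 CPM in WT (log2 -0.84, SE 0.38, edgeR adjusted p = 0.425), the same order of libraries as for Rpl35.

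Rpl5 and Rpl11 bind the 5S ribosomal RNA and, when ribosome assembly is impaired, the p53 inhibitor MDM2. Rpl5 had 284, 228 and 141 CPM in KO, against 253, 460 and 245 CPM in WT (log2 -0.55, SE 0.31, edgeR adjusted p = 0.484). Rpl11 had 302, 226 and 175 CPM in KO, against 282, 439 and 204 CPM in WT (log2 -0.39, SE 0.30, edgeR adjusted p = 0.583). For both, KO 1 was second only to WT 2. Rpl41, whose product is a very short basic peptide at the interface of the subunits, and Rpl26 were among the 5 members of highest level per kilobase of mRNA, at 881 and 560 CPM per kilobase over all libraries. Rpl41 had 415, 307 and 254 CPM in KO and 406, 579 and 349 CPM in WT, and Rpl26 had 308, 232 and 166 CPM in KO and 324, 477 and 261 CPM in WT. Neither passed the test (log2 -0.45, SE 0.25, and -0.59, SE 0.28).

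Levels of 2 large-subunit genes were far below those of the other subunit genes. Rpl24 had 15, 31 and 19 counts in KO and 31, 17 and 53 counts in WT, and 71.5% of its mRNA length is covered by Gm28037 on the same strand. Rpl13a had 137, 121 and 89 counts in KO and 177, 143 and 198 counts in WT, with 59.3% of its length covered on the same strand by Gm45713 and Mir5121. Whether reads of these genes were left out as shared was not tested. The small-subunit gene Rps10, with 91.6% of its length covered on the same strand by RPS10-NUDT3, had a mean of 115 CPM. The other large-subunit genes had means over the 6 libraries from 34.9 CPM for Rpl23a upwards.

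In the small subunit, Rps6, the protein phosphorylated by S6 kinases downstream of mTORC1, was measured at 308, 243 and 149 CPM in KO, against 323, 574 and 298 CPM in WT. WT 2 was the highest library and KO 3 the lowest, and KO 1 lay between WT 3 and WT 1. The gene (ENSMUSG00000028495.14, chromosome 4 from 86854660 to 86857412, minus strand) reached -0.77 (SE 0.32, edgeR adjusted p = 0.415) in log2 fold change, and -0.17 (SE 0.16) without WT 2 and KO 3. Rpsa, which sits on the head of the small subunit and is also known as the laminin receptor, held the largest part of the reads, 3.96% of all member counts. Rpsa had 731, 586 and 423 CPM in KO and 662, 868 and 600 CPM in WT (log2 -0.29, SE 0.25, edgeR adjusted p = 0.614), so that KO 1 was above WT 1 and WT 3.

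Rps13 and Rps27 departed from the common pattern. Rps13 (ENSMUSG00000090862.3, chromosome 7 from 116331505 to 116334195, minus strand) had 176, 141 and 89.6 CPM in KO, against 143, 142 and 102 CPM in WT. KO 1 was its highest library and KO 3 its lowest, and WT 2 did not exceed WT 1. Its log2 fold change was 0.07 (SE 0.26, edgeR adjusted p = 0.917), and it was negative without KO 1 (-0.16) and without WT 3 (-0.07). The pseudogene Rps13-ps1, a copy that can take up reads of Rps13, had 3.82, 2.70 and 2.44 CPM in KO against 34.2, 27.3 and 52.0 CPM in WT (log2 -3.66, SE 0.30, edgeR adjusted p = 0.00498). With the counts of named pseudogenes added to their parent genes, the log2 fold change of Rps13 was -0.15 (SE 0.23, edgeR adjusted p = 0.780). Rps13-ps1 and Rps27 were chosen after their values were seen. Rps27, the zinc-binding protein also called metallopanstimulin, had 229, 166 and 86.4 CPM in KO, against 193, 132 and 184 CPM in WT (log2 -0.08, SE 0.32), with WT 2 the lowest WT library.

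The P stalk recruits elongation factors and consists of Rplp0 with dimers of Rplp1 and Rplp2. Rplp0 (ENSMUSG00000067274.10, chromosome 5 from 115559467 to 115563727) had 647, 382 and 292 CPM in KO, against 327, 872 and 295 CPM in WT. Its KO 1 library lay well above WT 1 and WT 3 and only WT 2 was higher. The log2 fold change was -0.18 (SE 0.43, edgeR adjusted p = 0.872) with 6 libraries. Without WT 2 and KO 3 it was 0.73 (SE 0.23, edgeR adjusted p = 0.444). Rplp1 had 350, 277 and 193 CPM in KO, against 325, 381 and 296 CPM in WT (log2 -0.29, SE 0.24). Rplp2 had 497, 390 and 262 CPM in KO, against 412, 800 and 414 CPM in WT (log2 -0.50, SE 0.32), and the highest level per kilobase of all members, 1098 CPM. The ratio of WT 2 to the other WT libraries differed among the 3 stalk genes, at 2.80 for Rplp0, 1.23 for Rplp1 and 1.94 for Rplp2, whereas that of KO 3 to the other KO libraries lay between 0.568 and 0.614.

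Rps27a, made as a fusion of ubiquitin with a small-subunit protein, was uneven over the libraries, with 170, 52.1 and 37.6 CPM in KO, against 59.8, 189 and 68.4 CPM in WT. KO 1 and WT 2 each stood well above the other libraries of their group, and the groups overlapped (log2 -0.28, SE 0.58, edgeR adjusted p = 0.846). The ribosome also holds products of genes outside the naming rule. Fau, a fusion with a ubiquitin-like protein, had 190, 152 and 124 CPM in KO and 150, 231 and 147 CPM in WT (log2 -0.18, SE 0.24). Rack1, a scaffold on the small subunit, had 254, 216 and 158 CPM in KO and 267, 293 and 231 CPM in WT (log2 -0.33, SE 0.21). WT 2 was the highest library for both genes.

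Paralogs and copies were mostly low. Rpl10l, a retained copy of Rpl10 known from the testis, and the copies Rpl36-ps4 and Rpl9-ps1 had 0 counts in every library, and Rpl36al had 1, 5 and 7 counts in KO and 6, 0 and 14 counts in WT, so these 4 were not tested. Of the mRNA length of Rpl36al, 63.1% is covered by Gm49383 on the same strand. Whether reads of Rpl36al were left out as shared was not tested. Rpl3l, the paralog of Rpl3 known from striated muscle, had 0.637, 0.343 and 0.831 CPM in KO and 0.283, 1.13 and 0.765 CPM in WT (log2 -0.24, SE 0.61), while the summed level of skeletal muscle markers, 10 of 10 tested negative, was 2.59, 46.7 and 4.64 CPM in KO and 10.6, 16.5 and 53.5 CPM in WT. Without WT 3, 3 of the 10 muscle markers were negative (median 0.47). The part of muscle cells in the level of Rpl3l was not tested. Rpl39l, the paralog of Rpl39 known from male germ cells, had 1.73, 2.02 and 0.489 CPM in KO and 2.55, 2.33 and 1.32 CPM in WT (log2 -0.53, SE 0.52).

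Rpl22l1, the paralog of Rpl22, had 7.87, 7.04 and 2.15 CPM in KO, against 7.80, 12.9 and 8.74 CPM in WT. KO 3 was less than 1 in 3 of either other KO library. Rpl22 itself had 131, 107 and 70.8 CPM in KO and 129, 248 and 113 CPM in WT. Neither gene passed the test (log2 -0.78, SE 0.42, for Rpl22l1 and -0.67, SE 0.32, for Rpl22). Rps27l, a paralog of Rps27 known as p53-inducible in human cells, had 131, 109 and 74.6 CPM in KO and 134, 180 and 106 CPM in WT (log2 -0.42, SE 0.26). Unlike Rps27, it was highest in WT 2. Rps27rt, a retained copy of Rps27, had 30.4, 20.4 and 13.0 CPM in KO and 28.6, 27.3 and 28.6 CPM in WT (log2 -0.40, SE 0.27).

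Of the copies, 3 were low in WT 2, where their parent genes were high. Rpl10-ps3 had 12.4, 12.1 and 9.48 CPM in KO and 16.4, 2.33 and 15.7 CPM in WT, and its ratio of WT 2 to the other WT libraries, 0.145, was the lowest of all members. Rps12-ps3 had 52.5, 38.5 and 20.5 CPM in KO and 53.8, 16.5 and 48.6 CPM in WT, against 188, 136 and 88.4 CPM in KO and 178, 267 and 151 CPM in WT for Rps12. Rpl9-ps6 had 32.7, 27.3 and 20.6 CPM in KO and 33.7, 22.8 and 34.6 CPM in WT. These 3 copies, like their parents, were lowest in KO 3 among the KO libraries, and how reads were shared between copies and parents was not tested. Copies and parents can exchange reads, so the levels of these members are uncertain.

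Some members share the name without being standard subunits. Rps19bp1, which encodes a nucleolar protein that binds Rps19, had 12.2, 14.5 and 13.4 CPM in KO and 11.1, 16.6 and 16.2 CPM in WT (log2 -0.13, SE 0.21), and its ratio of KO 3 to the other KO libraries was 1.0. Rpl7l1, related to Rpl7, had 44.1, 42.5 and 38.4 CPM in KO and 36.6, 76.4 and 53.6 CPM in WT (log2 -0.41, SE 0.24). WT 2 was the highest library for both, and WT 1 the lowest. Rps4l is annotated as a pseudogene in GENCODE and is no member; its log2 fold change was 0.73 (SE 0.24, edgeR adjusted p = 0.374).

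Members were also split by the letters of their promoters. Members with the run had a median log2 fold change of -0.50 (41 genes) and those without it -0.45 (23 tested genes), and the median ratio of WT 2 to the other WT libraries was 1.62 with the run and 1.70 without. For the ratio of KO 3 to the other KO libraries the medians were 0.580 with the run and 0.611 without. The 6 members with TATAAA had a median log2 fold change of -0.80, against -0.47 in the 58 tested members without it, with WT 2 ratios of 2.23 and 1.62 and KO 3 ratios of 0.522 and 0.592. With and without the ETS core the medians were -0.50 (24 genes) and -0.46 (40 genes). These are descriptions with no test. Rpl23, whose printed window holds no run, had a ratio of WT 2 to the other WT libraries of 2.64, above that of Rps6, at 1.85, where a run lies at the start. The absence of these letters from a window says nothing of the factors that act on the gene.

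Members are short, with a median mRNA length of 698 bases against 2559 bases over all genes tested, and the medians of other short mRNAs lay on the same side of 1 in KO 3 and WT 2, nearer to it. Among mRNAs of 600 to 1000 bases, the ratio of KO 3 to the other KO libraries had a median of 0.612 over 35 members and 0.894 over 1166 other genes, and that of WT 2 to the other WT libraries a median of 1.70 over members and 1.2 over other genes. Among mRNAs under 600 bases the KO 3 ratio was 0.562 over 34 members and 0.828 over 833 other genes, and the WT 2 ratio 1.55 and 1.12. Among other genes of at least 4000 bases the medians were 1.07 for KO 3 and 0.841 for WT 2. Within each length class, members had lower KO 3 ratios and higher WT 2 ratios than the median of the other genes. Median GC content was 51.4% for members and 50.2% for all genes. The ratio in KO 3 correlated with GC content across genes with a Spearman rho of 0.37 over members and 0.38 over all genes, and for the ratio in WT 2 rho was -0.06 in both sets. With mRNA length, rho was 0.24 over members and 0.19 over all genes for KO 3, and 0.19 over members but -0.30 over all genes for WT 2. These are descriptions across genes, which are not independent. The part of mRNA length, RNA quality, library depth or the share of mitochondrial counts in the shift was not tested.

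**Figure D4:**
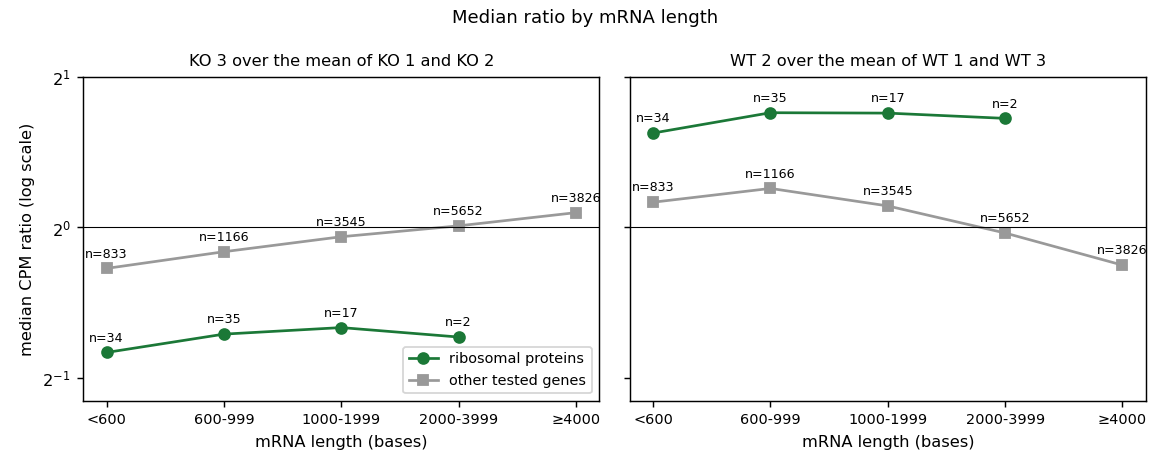
Median CPM ratio of KO 3 to the mean of KO 1 and KO 2 (left) and of WT 2 to the mean of WT 1 and WT 3 (right), on log scales, by mRNA length, for ribosomal protein genes (circles) and all other tested genes (squares), with the number of genes at each point. Other genes show a slope with length, and ribosomal protein genes lie farther from 1 than other genes of the same length.

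Mitochondrial ribosomal proteins, the Mrpl and Mrps genes, were set beside the members as the other ribosome of the tissue. Of 80 tested, 47 had a negative log2 fold change and 0 were called by edgeR (0.0595% of all genes), and the median was -0.05. Their median ratios were 0.947 for KO 3 and 1.21 for WT 2, at a median mRNA length of 1221 bases. The cytosolic members of 1000 to 2000 bases had medians of 0.630 for KO 3 and 1.69 for WT 2.

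Other mRNAs known to carry a TOP motif varied like the ribosomal proteins. Of 24 such genes, which include elongation factors and poly(A)-binding proteins, 23 had a negative log2 fold change, with a median of -0.44, and 0 were called by edgeR. WT 2 was the highest library for 22 of them and KO 3 the lowest for 20. Eef1a1, the factor that brings aminoacyl-tRNA to the ribosome, had 3076, 2311 and 1754 CPM in KO, against 3226, 4359 and 2639 CPM in WT. Nap1l1, a histone chaperone, had 58.2, 50.2 and 36.5 CPM in KO, against 90.4, 124 and 69.1 CPM in WT (log2 -0.97, SE 0.25, edgeR adjusted p = 0.310). Its groups did not overlap, and DESeq2 called it (DESeq2 adjusted p = 0.0376). Npm1, a nucleolar chaperone of ribosome assembly, had 80.9, 75.5 and 47.4 CPM in KO, against 103, 181 and 90.6 CPM in WT (log2 -0.88, SE 0.29, edgeR adjusted p = 0.374), again without overlap. Without WT 2 and KO 3 the median of the 24 genes was -0.06.

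**Figure D5:**
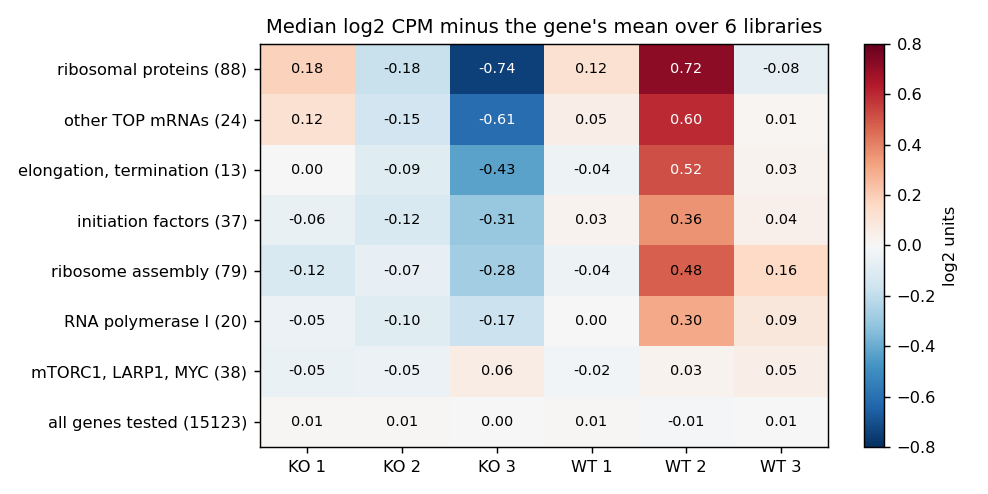
Median over the genes of each list of log2 CPM minus the gene's own mean over the 6 libraries, with the number of genes tested in brackets; red is above and blue below the gene's mean. Ribosomal proteins and other TOP mRNAs are at -0.74 and -0.61 in KO 3 and at 0.72 and 0.60 in WT 2, while mTORC1, LARP1 and MYC genes stay within 0.06 of 0.

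Genes that build ribosomes had mostly negative fold changes as well. Of 79 tested ribosome assembly genes, 69 had a negative log2 fold change (median -0.39) and 0 were called by edgeR, while 25 were lower at an unadjusted p under 0.05 (5.49% of all genes) and 0 were higher. In 31 of the 79 the groups did not overlap with KO below WT (9.39% of all genes), against 1 of 88 ribosomal proteins. The count of 25 became 14 without KO 1, 19 without KO 2 and 13 without KO 3. It became 38 without WT 1, 9 without WT 2 and 26 without WT 3. Without both WT 2 and KO 3, 66 of the 79 were negative (median -0.17), 62 of them among the 69, and 5 were lower at that threshold (3.96% of all genes). Nop56, a core protein of box C/D small nucleolar ribonucleoproteins, had 13.6, 14.7 and 10.8 CPM in KO, against 17.5, 32.0 and 24.7 CPM in WT (log2 -0.92, SE 0.24, edgeR adjusted p = 0.310). Gnl3, the nucleolar GTPase nucleostemin, had 22.8, 25 and 14.4 CPM in KO, against 29.5, 62.2 and 42.1 CPM in WT (log2 -1.10, SE 0.29, edgeR adjusted p = 0.316). Both had all KO libraries below all WT libraries, and DESeq2 called Gnl3 (DESeq2 adjusted p = 0.0403) but not Nop56.

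Of 37 translation initiation factors, 30 were negative (median -0.31) and 0 called by edgeR. At an unadjusted p under 0.05, 8 were lower (5.49% of all genes) and 0 higher (6.3%). The count of 8 became 11 without KO 1, 2 without KO 2 and 2 without KO 3. It became 9 without WT 1, 3 without WT 2 and 11 without WT 3. Without both WT 2 and KO 3, 29 were negative (median -0.11), and 2 were lower at that threshold (3.96% of all genes). Eif3j1 stood at log2 -0.75 (SE 0.22, edgeR adjusted p = 0.339) and Eif2s1, the alpha subunit of eIF2, -0.70 (SE 0.21, edgeR adjusted p = 0.350). Of 13 elongation and termination factors, 11 were negative (median -0.44), and 9 without WT 2 and KO 3 (median -0.12). With all libraries, 2 were lower (5.49% of all genes) and 1 higher (6.3%) at an unadjusted p under 0.05. The count of 2 lower became 0 to 6 with 1 library left out. The higher one was Eef2k, the kinase that inhibits elongation factor 2, with 11.2, 10.6 and 11.6 CPM in KO against 7.43, 7.54 and 7.45 CPM in WT (log2 0.58, SE 0.19, edgeR adjusted p = 0.370), and Eif5a2 stood at log2 -0.90 (SE 0.32, edgeR adjusted p = 0.375). Of 20 genes of RNA polymerase I and its factors, 15 were negative (median -0.35), and 15 without WT 2 and KO 3 (median -0.12). With all libraries, 3 were lower at that threshold (5.49% of all genes), and 1 to 5 with 1 library left out. Znrd1 and Taf1d had the smallest p of these, at log2 -0.62 (SE 0.20) and -0.76 (SE 0.28).

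Regulators of ribosomal protein synthesis were near an even split. Of 38 genes of mTORC1, LARP1 and MYC, 22 were negative (median -0.10) and 0 called by edgeR. At an unadjusted p under 0.05, 3 were lower (5.49% of all genes) and 2 higher (6.3%). With 1 library left out, 2 to 4 were lower and 0 to 5 higher. Without both WT 2 and KO 3, 26 of the 38 were negative (median -0.07). Max, the dimerization partner of MYC, had 36.0, 36.5 and 29.7 CPM in KO, against 46.9, 71.2 and 54.7 CPM in WT (log2 -0.76, SE 0.19, edgeR adjusted p = 0.309). Mxi1, which competes with MYC for Max, stood at log2 -0.58 (SE 0.20, edgeR adjusted p = 0.375). Larp1 had 64.5, 78.3 and 76.1 CPM in KO and 72.2, 68.1 and 81.4 CPM in WT (log2 -0.02, SE 0.16), and Mtor had 97.2, 125 and 238 CPM in KO and 116, 65.0 and 119 CPM in WT (log2 0.61, SE 0.34). Mtor was highest in KO 3 and lowest in WT 2, the reverse of the ribosomal proteins. Larp1 and Mtor were named after their values were seen.

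Markers of other cells and of stress were set beside the shift. The summed level of white adipocyte markers was 77.9, 73.8 and 40.2 CPM in KO and 65.4, 153 and 68.7 CPM in WT, with 4 of the 5 tested markers negative and Hoxc9, Hoxc10 and Wt1 at 0 in every library. This sum shared with the ribosomal proteins a highest value in WT 2 and a lowest in KO 3. Taken singly, 3 of the 5 markers were highest in WT 2 and 3 were lowest in KO 3. Without WT 2 and KO 3, 1 of the 5 markers was negative (median 0.25). Macrophage markers summed to 151, 141 and 89.7 CPM in KO and 105, 173 and 144 CPM in WT. Of them, 8 of 11 were negative, and the sum was again lowest in KO 3 and highest in WT 2. Marker by marker, KO 3 was lowest for 6 of the 11, while WT 2 was highest for 2 and WT 3 for 5. Without WT 2 and KO 3, 2 of the 11 were negative (median 0.17). Endothelial markers ran the other way, at 537, 799 and 1007 CPM in KO and 588, 447 and 740 CPM in WT, with 10 of 10 positive. Without WT 2 and KO 3, 4 of the 10 were negative (median 0.08). Lymphocyte markers summed to 33.2, 33.6 and 29.8 CPM in KO and 23.8, 17.7 and 18 CPM in WT, with 11 of 12 positive. Without WT 2 and KO 3, 0 of the 11 then tested were negative (median 0.51). The part of these cells in the ribosomal protein levels was not tested.

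Heat shock genes had another pattern, with all 11 negative (median -1.28) and 0 called by edgeR. At an unadjusted p under 0.05, 9 were lower (5.49% of all genes). Without WT 2 and KO 3, all 11 were again negative (median -1.52). WT 3, not WT 2, was the highest library in 11 of 11, and without WT 3 the median was -0.62, with 4 lower at that threshold (5.77% of all genes). Hspa1b had 1.32, 2.02 and 1.07 CPM in KO, against 3.84, 3.40 and 118 CPM in WT (log2 -4.83, SE 1.30, edgeR adjusted p = 0.320), and stood at -1.30 (SE 0.41, edgeR adjusted p = 0.382) without WT 3. Hsp90ab1 stood at log2 -0.84 (SE 0.23, edgeR adjusted p = 0.322; DESeq2 adjusted p = 0.0238). Fibroblast markers (8 of 11 positive) summed to 1259 to 1447 CPM in KO and 1003 to 1268 CPM in WT, erythrocyte markers (5 of 6 negative) to 500 to 760 CPM in KO and 725 to 902 CPM in WT, and Schwann cell markers (7 of 8 positive) to 150 to 215 CPM in KO and 167 to 181 CPM in WT.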

How the data were processed

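Whole-tissue poly(A) libraries were made with a stranded kit after extraction with Isogen, per the labels' protocols. The deposited table holds whole-number read counts for each gene, not normalized. The authors aligned to mm10 with HISAT2 2.1.0, counted with featureCounts 1.6.2 and named DESeq2, per the submitters' processing notes; annotation release and strand setting: not given in the sources used here. Without the strand setting, reads of genes that overlap on opposite strands cannot be told apart. Identifiers without their version were matched to GENCODE M21, and 53620 of 53715 had a symbol and a position. Libraries of a group were separate individuals and differed by far more than sampling noise (chi-square per degree of freedom 30.1 to 192).

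Genes were kept with filterByExpr (minimum count 10, minimum total 15), leaving 15123 genes with 99.9% of counts. The comparison of KO with WT used the edgeR 4.0.16 quasi-likelihood test (R 4.3.3, limma 3.58.1) with TMM factors, genotype only and Benjamini-Hochberg adjustment at 0.05. The scripts were tested on simulated counts with known changes. Log2 CPM had a prior count of 2, and mRNA length is that of the shortest basic transcript with the full coding sequence. Depth set the limits of detection given above. The design allowed for KO 4 if the count table had a column for it. The table held columns for 3 KO libraries, none of them KO 4, and these 3 were analysed. Same-numbered libraries were not treated as pairs.

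The members and lists were chosen with earlier results of these data known. Named were members without overlap between groups and p under 0.05, the 5 highest per kilobase, those of the largest fold changes (4 negative and the 1 positive), a set of subunits and paralogs whatever their values, the 2 smallest p of each list, and subunit genes outside the name rule; a few of these genes are not reported here. Rpl22, Rpl24, Rpl13a, Rps10, Rps12, Rps27, Rps27a, Eef1a1 and the copies were added after their values were seen. Alternatives were other scalings, filters and tools (DESeq2 1.42.0, limma-voom), a replicate block, counts of named pseudogenes added, and libraries left out. Python 3.11.15, pandas 2.3.3 and matplotlib 3.10.9 made tables and figures.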

Additional observations from a re-analysis of the deposited data

How the results depend on the processing

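Over 17 alternatives, 0 of the tested members were called except without a filter on low counts, where 13 were lower in KO. That fit covered 27874 genes, and its median total degrees of freedom were infinite, against 9.61 in the reported fit. Members lower at an unadjusted p under 0.05, 5 in the reported fit, numbered 1 with total counts only (no TMM factors; 2.1% of all genes), 43 without the filter (5.2%), 2 with the stricter filter (5.73%), 21 with DESeq2 (6.08%), 30 with the replicate block (5.68%) and 0 without both WT 2 and KO 3 (3.96%), which gave 1 higher member. Leaving out each library in turn gave 0 to 45, where 2.94% to 6.1% of all genes were lower. Same-numbered libraries had correlated deviations of -0.11, 0.10 and 0.09, so the numbers were not taken as pairs; the block called 0 members. Negative members numbered 50 to 88 over all alternatives. Total counts alone moved the median of all genes to 0.16 and that of members to -0.27, or -0.43 relative to all genes, with 78 of 88 negative. With each library left out, the median log2 fold change ran from -0.71 (without KO 1) to -0.22 (without WT 2) and the summed level from -0.71 to -0.18; without both libraries the summed level was 0.0366 on the log2 scale. Over all genes, 3 were called higher and 6 lower by edgeR, against 330 and 333 without the filter, 101 and 86 with DESeq2, 14 and 13 without both libraries, 1 higher with the replicate block, and 0 to 9 in each direction with 1 library left out. Pgam5 lost its call with limma-voom (log2 -5.21, adjusted p = 0.0531) and with the replicate block in edgeR (-4.95, adjusted p = 0.0655), and its log2 fold change ran from -6.18 to -4.35 with 1 library left out. Of the named genes' values under alternatives, 660 kept their side of the threshold and direction or remained uncalled, and 18 passed it, all without the filter or with DESeq2. The cause of these differences was not tested. With 3 libraries a group and KO 3 and WT 2 apart, the members' median SE was 0.296 on the log2 scale. Even fitted differences of -0.97 (Rpl35) and -0.92 (Rpl21) were not called.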
